A study of Mus musculus with 3 samples.

Results

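Ddx4, the gene of a germ cell RNA helicase, was measured together with 9 other genes of germ cells and pluripotent cells in mouse ovarian surface epithelial cells that had or had not passed through an epithelial to mesenchymal transition. The other genes were Dazl, Pou5f1, Nanog, Sox2, Kit, Kitl, Dppa3, Zp3 and Lin28a. Ddx4 was selected on its measured log2 ratio in this same comparison, where it was high in mesenchymal cells, so its values are described and not tested. The other genes go with it by their roles. Of the 10 genes, 9 were found among the 10008 named genes of the array, on 10 probes. Ddx4 had 2 probes, called probe 1 (the brighter) and probe 2 here. Nanog and Dppa3 carried older names in the array files and were found by their gene ID. No probe was matched to Lin28a under its current or older names, and it was not analysed here.

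The cells were ovarian surface epithelium, the single cell layer that covers the ovary, grown from superovulated and mated virgin female C57/Bl6 mice. Per the labels, capsule-free ovaries were dissociated with enzymes, and no sort of the cells is named. Each of 3 cultures was split into a mesenchymal part, held in 15% fetal bovine serum for 1 week, and an epithelial part, kept in 2.5% serum. RNA was taken at 80% confluence and amplified from 4 µg. The mesenchymal and epithelial RNA of each culture shared 2 two-colour Agilent arrays, with Cy3 and Cy5 exchanged between them, so there were 6 arrays. Serum and phenotype changed together in every culture and cannot be told apart.

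Germ cells are set aside early in the embryo and keep a set of genes that body cells silence. Ddx4, also called Vasa or Mvh, is a DEAD-box helicase of the germ granule, and Dazl binds RNA to control its translation in germ cells. Pou5f1, Nanog and Sox2 are transcription factors of the pluripotent network, and the first of them is also expressed in primordial germ cells and oocytes. Kit is the receptor, and Kitl its ligand, that germ cells need to survive and migrate. In the ovary Kitl is made by granulosa cells. Dppa3 is a maternal chromatin factor and Zp3 is a protein of the coat around the oocyte.

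The promoters of Ddx4 and Dazl are shown because both genes are known to be kept silent in body tissues by DNA methylation, which acts on CpG pairs. DNA methylation was not measured here. The 250 bases upstream of the annotated start are from RefSeq on GRCm38.p6, for Ddx4 at chr13:112652311-112652560 and for Dazl at chr17:50293621-50293870, both on the minus strand and written 5′ to 3′ along the gene. Capitals mark each match, on either strand, of the E-box CACGTG, the GC box GGGCGG, the CCAAT box CCAAT and the TATA box TATAAA.
Ddx4: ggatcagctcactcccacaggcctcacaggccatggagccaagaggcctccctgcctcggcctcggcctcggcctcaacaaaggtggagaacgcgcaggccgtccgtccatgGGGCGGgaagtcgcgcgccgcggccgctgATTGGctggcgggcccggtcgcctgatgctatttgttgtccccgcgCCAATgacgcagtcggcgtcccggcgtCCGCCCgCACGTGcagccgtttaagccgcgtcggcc
Dazl: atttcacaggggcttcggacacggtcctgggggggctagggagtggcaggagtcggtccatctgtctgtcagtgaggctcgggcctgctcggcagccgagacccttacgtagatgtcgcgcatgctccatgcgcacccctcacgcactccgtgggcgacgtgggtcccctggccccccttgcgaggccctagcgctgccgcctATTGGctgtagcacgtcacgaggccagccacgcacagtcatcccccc
The Ddx4 stretch held 31 CpG pairs, more than 94.8% of 32851 promoters of the same length, whose median was 6. The Dazl stretch held 20, more than 82.1% of them. Ddx4 had 1 E-box, 2 GC boxes and 2 CCAAT boxes, and Dazl had 1 CCAAT box. None of these matches overlapped another. Of all promoters, 6.02% held the E-box, 32.7% the GC box, 33.8% the CCAAT box and 12.4% the TATA box. The promoters that RefSeq lists for Pou5f1, Nanog, Sox2, Kit, Kitl and Zp3 held between 2 CpG pairs, in Nanog, and 27, in Sox2.

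The arrays carried 20371 probes, of which 17579 features (1 probe a gene, plus unnamed probes) were tested. In all, 2088 features (11.9%) differed between mesenchymal and epithelial cells at a Benjamini-Hochberg adjusted p under 0.05 from limma, 1048 of them higher (5.96%) and 1040 lower (5.92%) in mesenchymal cells. A log2 ratio here is mesenchymal over epithelial RNA, averaged over the dye-exchanged arrays of a culture, and ± marks the SD over the cultures, of which there were 3 where no other n is given. Spots that the scanner software flagged as outliers were left out, and a culture counted for a probe when neither of its arrays was flagged there. One array stood apart, that of culture 3 with Cy3 on the mesenchymal RNA, where 1639 probes were flagged, against 61 to 467 on the others. Across probes, which are no independent replicates, cultures 2 and 3 correlated at 0.8835, and culture 1 correlated with them at 0.5887 and 0.6333. The dye effect, the mean log2 ratio of Cy5 over Cy3, was larger in size than the log2 ratio of mesenchymal over epithelial RNA for 12341 features (70.2%). Arrays of opposite dye order, turned to 1 direction, correlated at -0.5278 to -0.1399.

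Ddx4 was higher in mesenchymal RNA on every array. On the arrays with mesenchymal RNA in Cy5, the log2 ratio of probe 1 was 0.94, 0.83 and 1.38 in cultures 1, 2 and 3. With mesenchymal RNA in Cy3 it was 2.08, 2.43 and 2.33. The 6 values were all above 0, and every value with mesenchymal RNA in Cy3 exceeded every value with it in Cy5. Averaged over both dye orders, the ratio was 1.51 in culture 1, 1.63 in culture 2 and 1.85 in culture 3, a mean of 1.66 ± 0.17. That is 3.17 times the epithelial level, and 2.85, 3.10 and 3.61 times in the 3 cultures. Without the array that stood apart, in a fit over 5 arrays with a dye term, the ratio was 1.68. From 1 dye order alone, the mean was 1.05 with mesenchymal RNA in Cy5 and 2.28 with it in Cy3. In these bulk samples, more cells with the transcript and more RNA in each cell cannot be told apart.

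The signals behind these ratios lay far above the 162 negative control spots of each array. On the arrays of cultures 1, 2 and 3 with mesenchymal RNA in Cy5, the background-subtracted signal of Ddx4 probe 1 was 4821, 6482 and 4741 in mesenchymal RNA, against 2214, 5272 and 3338 in epithelial RNA. With mesenchymal RNA in Cy3 it was 12499, 15134 and 25793 in mesenchymal RNA, against 1807, 2275 and 3331 in epithelial RNA. The mesenchymal signal was the higher one on each array, and the epithelial signal also exceeded every negative control on all 6. The 95th percentile of the controls ranged from 94.1 to 325.4 in mesenchymal RNA and from 116.8 to 228.8 in epithelial RNA. Probe 1 thus read above the controls in both kinds of cell.

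**Figure D1:**
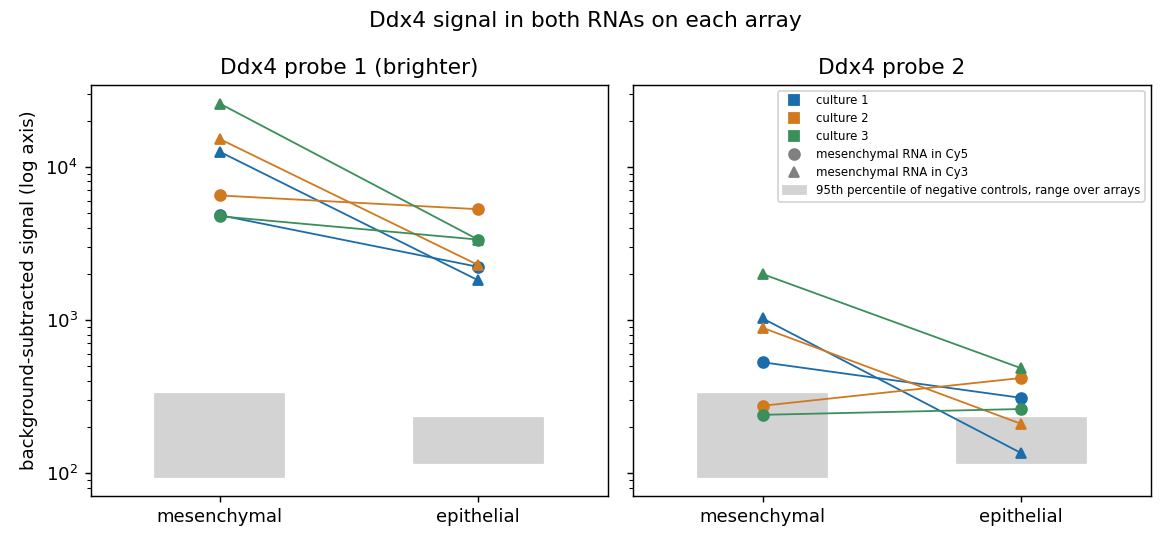
Background-subtracted signal (log axis) of Ddx4 probe 1 (left) and probe 2 (right) in mesenchymal and epithelial RNA, with lines joining the 2 RNAs of an array, colours for the 3 cultures, symbols for the dye order and grey bands for the 95th percentile of negative controls over arrays. For probe 1 the mesenchymal signal, 4741 to 25793, lies above the epithelial signal on every array, and for probe 2 it lies above it on 4 of the 6 arrays.

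Probe 2 of Ddx4 was much dimmer, and 2 of its 6 spots were outlier-flagged. Its log2 ratio was 0.65 (flagged), 0.11 and 0.94 with mesenchymal RNA in Cy5 and 1.97, 1.37 and 1.10 (flagged) with it in Cy3, for cultures 1, 2 and 3. All 6 values were above 0. By the rule on flagged spots only culture 2 had a value, 0.74. With the flagged spots kept, the mean was 1.03 ± 0.28. Its signal was 240 to 1988 in mesenchymal RNA, against 135 to 482 in epithelial RNA, above 95% of the controls in both RNAs on all 6 arrays. Before normalisation the mesenchymal signal was the lower one on 2 arrays, at 275 against 417 in culture 2 and 240 against 261 in culture 3, both with mesenchymal RNA in Cy5. The dye effect was -0.61 for probe 1 and, in culture 2, -0.63 for probe 2.

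Ddx4 ranked 35th of 17579 features by mean log2 ratio, and 27th of the 9954 named ones. Being above 0 on all 6 arrays was seen for 945 of 15475 features measured on all of them (6.11%). The named features whose ratios in the 3 cultures came closest to those of Ddx4, by root mean square difference among 8029 compared, are given next as a description. Cmtm3, a membrane protein of the chemokine-like factor family, came closest, with ratios of 1.59, 1.85 and 1.60 and a difference of 0.197. Vegfb, a growth factor of the VEGF family, differed by 0.206 and Sqor, a mitochondrial enzyme of sulfide oxidation, by 0.219. Rab3b, a small GTPase of vesicle release, differed by 0.224 and the surface glycoprotein gene Cd24a by 0.24.

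Of the measured genes next to Ddx4 on chromosome 13, 1 passed the test, and it was lower in mesenchymal cells. In the RefSeq gene order, the neighbour on one side, Il31ra, a cytokine receptor gene, had a log2 ratio of -0.04 ± 0.11 (limma adjusted p = 0.825). The gene beyond it, Il6st, which encodes the shared receptor subunit gp130 of the interleukin-6 family, fell by 0.98 ± 0.15 (log2; limma adjusted p = 0.00126). Map3k1 was at 0.21 ± 0.16 (adjusted p = 0.198), and Mier3 was at -0.28 ± 0.02 in 2 cultures (adjusted p = 0.132). On the other side, the nearest measured genes were Mtrex at 0.22 ± 0.23, Dhx29 at 0.38 ± 0.22 in 2 cultures and Ccno at -0.07 ± 0.13, with adjusted p between 0.113 and 0.703. Of the 10 genes within 5 places of Ddx4, 7 were measured and 1 was past the threshold, against 11.9% of all features.

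**Figure D2:**
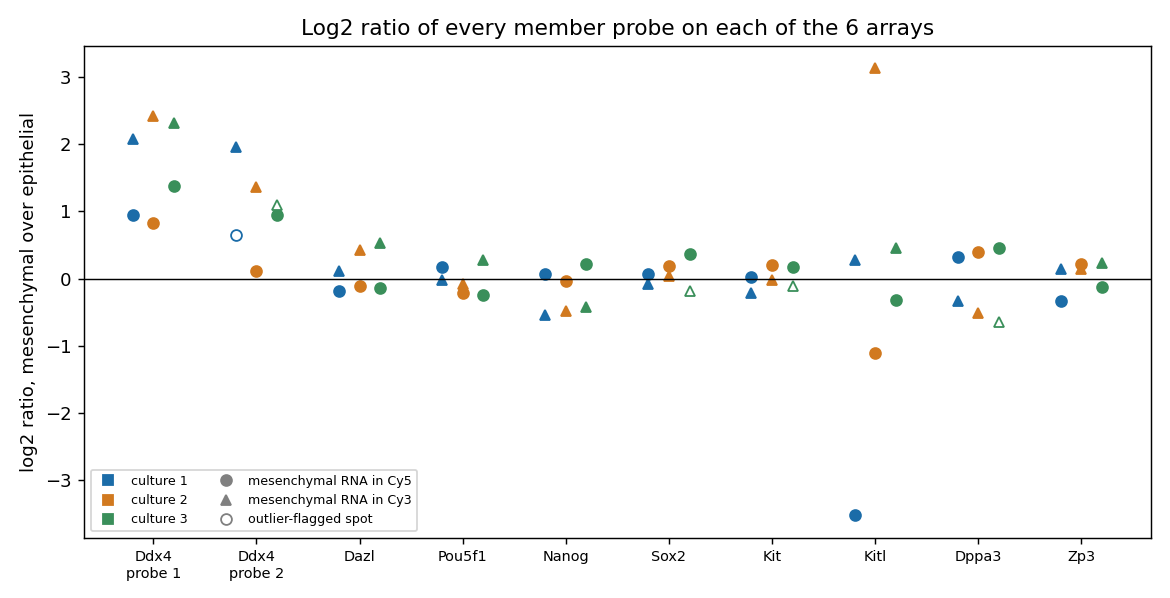
Log2 ratio of mesenchymal over epithelial RNA for the 10 probes on each of the 6 arrays, coloured by culture, with circles for mesenchymal RNA in Cy5, triangles for mesenchymal RNA in Cy3 and open symbols for outlier-flagged spots. Both Ddx4 probes lie above 0 on all 6 arrays, the Kitl probe runs from -3.53 to 3.14, and the other 7 genes lie on both sides of 0.

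None of the other 8 genes measured passed the test. At an adjusted p under 0.05 from limma, 0 of 8 were called, against 11.9% of all features. At an unadjusted p under 0.05, 1 of 8 passed, Nanog. The share of all features at that mark was not counted, so this count has no background. Without the array that stood apart, 0 of 8 were called as well. Sox2, Kit and Dppa3 each had a flagged spot, which left 5 of the 8 measured on all 6 arrays. Of these 5, 0 lay above 0 on every array and 0 below it. The shares of all features so measured were 6.11% and 5.92%. For all 8 the dye effect was larger in size than the log2 ratio, against 70.2% of features. Of their 8 mean ratios, 3 were above 0 and 5 below, with a median of -0.015, beside -0.003 over all features. A missed threshold does not show that the levels were alike, so the 95% interval of each change, from the same fit, is given below.

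Dazl, which germ cells express together with Ddx4, did not pass the test. Its log2 ratio was -0.036, 0.15 and 0.19 in cultures 1, 2 and 3, a mean of 0.10 ± 0.12 (limma adjusted p = 0.537), with an interval from -0.086 to 0.29. The 3 arrays with mesenchymal RNA in Cy5 gave -0.19, -0.11 and -0.14, and the 3 with it in Cy3 gave 0.12, 0.42 and 0.53. The sign thus followed the dye order in every culture. Its signal was 391 to 1463 in mesenchymal RNA, against 379 to 1274 in epithelial RNA, above 95% of the controls in both on all 6 arrays.

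Dppa3, the maternal chromatin factor also called Stella, had a ratio of -0.0094 in culture 1 and -0.059 in culture 2, with culture 3 left out for a flagged spot. The mean was -0.034 ± 0.035 (n = 2, limma adjusted p = 0.887), with an interval from -0.26 to 0.19. By array, the log2 ratio was 0.32, 0.39 and 0.46 with mesenchymal RNA in Cy5 and -0.34, -0.51 and -0.65 with it in Cy3. These 2 sets of values did not overlap, and the mean dye effect was 0.39. The signal was above 95% of the controls in mesenchymal RNA on 6 arrays and in epithelial RNA on 4.

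Of the 3 pluripotency factors, Nanog came nearest to the threshold. Its ratio was -0.24, -0.26 and -0.10 in the 3 cultures, a mean of -0.20 ± 0.086 with an interval from -0.38 to -0.024. The unadjusted p was 0.0316 and the limma adjusted p 0.155. All 3 cultures were below 0, but by array the ratio was 0.073, -0.037 and 0.22 with mesenchymal RNA in Cy5 and -0.54, -0.49 and -0.42 with it in Cy3. The Nanog signal, 886 to 4423 in mesenchymal RNA, against 713 to 3721 in epithelial RNA, exceeded every negative control on all 6 arrays in both RNAs.

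Pou5f1, which encodes OCT4, had ratios of 0.073, -0.15 and 0.013, a mean of -0.022 ± 0.12 (limma adjusted p = 0.915) and an interval from -0.21 to 0.17. Its signal was 117 to 1052 in mesenchymal RNA, against 123 to 1019 in epithelial RNA. It was above 95% of the controls in mesenchymal RNA on 6 arrays and in epithelial RNA on 5, the exception being culture 1 with epithelial RNA in Cy3.

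The Sox2 probe was close to the controls. Its signal was 42.2 to 406.9 in mesenchymal RNA, against 73.8 to 216.8 in epithelial RNA, and passed 95% of the controls on 1 array of 6 in each, the array with many flagged spots. Its ratio was -0.0003 in culture 1 and 0.11 in culture 2, a mean of 0.055 ± 0.078 (n = 2, limma adjusted p = 0.820), with an interval from -0.18 to 0.29. No Sox2 transcript was detectable beyond the controls on the other 5 arrays in either kind of cell.

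The receptor gene Kit had ratios of -0.10 in culture 1 and 0.083 in culture 2, a mean of -0.0086 ± 0.13 (n = 2, limma adjusted p = 0.977), with an interval from -0.26 to 0.24. Its signal was 177 to 1063 in mesenchymal RNA, against 189 to 602 in epithelial RNA. That was above 95% of the controls in both RNAs on all 6 arrays, though never above all of them.

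Its ligand gene Kitl gave values that disagreed between arrays. On the arrays with mesenchymal RNA in Cy5 the log2 ratio was -3.53, -1.10 and -0.33 in cultures 1, 2 and 3, and with it in Cy3 it was 0.27, 3.14 and 0.45. The Cy3 channel was thus the higher one on all 6 arrays, with a mean dye effect of -1.47. Over cultures the ratios were -1.63, 1.02 and 0.060, a mean of -0.18 ± 1.34 (limma adjusted p = 0.874) with an interval from -1.27 to 0.90. The signal passed 95% of the controls on 2 of 6 arrays in each RNA. In mesenchymal RNA it was 126, 72.7 and 41.1 in Cy5 and 112, 1106 and 196 in Cy3, against 1490, 305 and 146 (epithelial RNA in Cy3) and 41.3, 56.7 and 45.2 (epithelial RNA in Cy5) on the same arrays. Without culture 1, the 2 cultures left had a mean of 0.54 and Kitl was called (adjusted p = 4.66e-10), in a fit that gave every feature 1 common spread.

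Zp3, the sperm-binding protein of the egg coat, had a bright probe and ratios on both sides of 0. Its ratio was -0.094, 0.18 and 0.049 in the 3 cultures, a mean of 0.045 ± 0.14 (limma adjusted p = 0.824), with an interval from -0.15 to 0.24. The signal was 2426 to 11872 in mesenchymal RNA, against 1737 to 21478 in epithelial RNA, and exceeded every negative control on all 6 arrays in both. The ranges of the 2 RNAs overlapped.

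**Figure D3:**
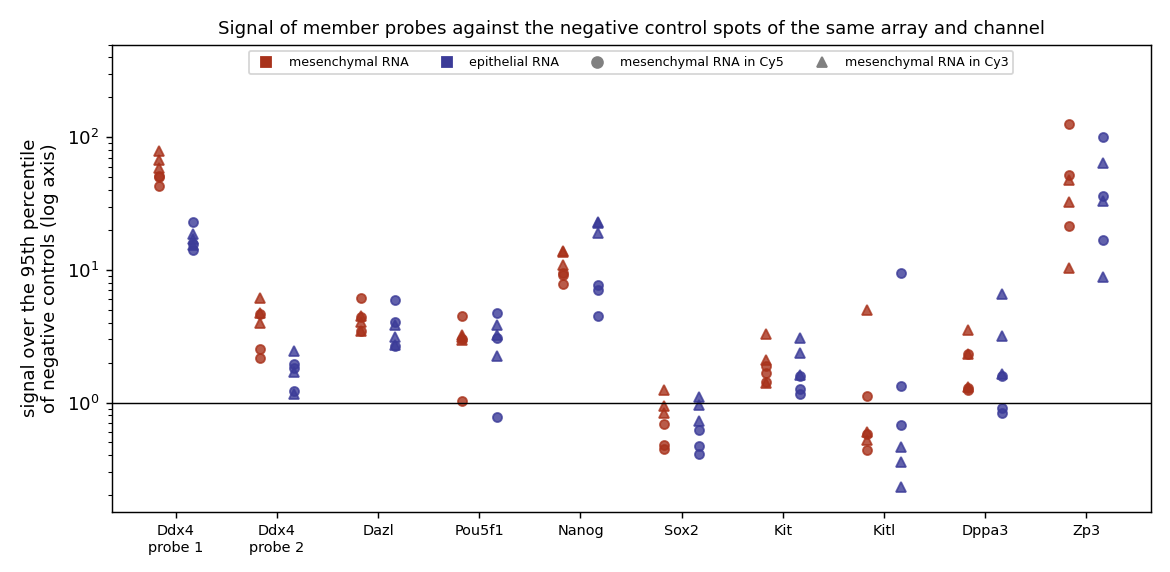
Signal of the 10 probes in mesenchymal (red) and epithelial (blue) RNA on each of the 6 arrays, divided by the 95th percentile of negative controls of the same array and channel (log axis, line at 1), with circles for mesenchymal RNA in Cy5 and triangles for it in Cy3. The mesenchymal values of Ddx4 probe 1 all lie above its epithelial ones, the 2 RNAs overlap for Zp3 and most other genes, and Sox2 and Kitl lie mostly under the line.

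Over the 10 probes, 6 were above 95% of the controls in both RNAs on all 6 arrays, against 86.3% of all probes. In mesenchymal RNA 8 of 10 were above them on at least 4 arrays, against 95.5% of all probes, and in epithelial RNA 8 of 10, against 94.9%. Since nearly every probe passes this mark, passing it does not show that a probe measured its own gene, and cross-hybridisation was not tested. All 10 probes passed the filter on dim spots, which removed 43 probes in all, and none was saturated.

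**Figure D4:**
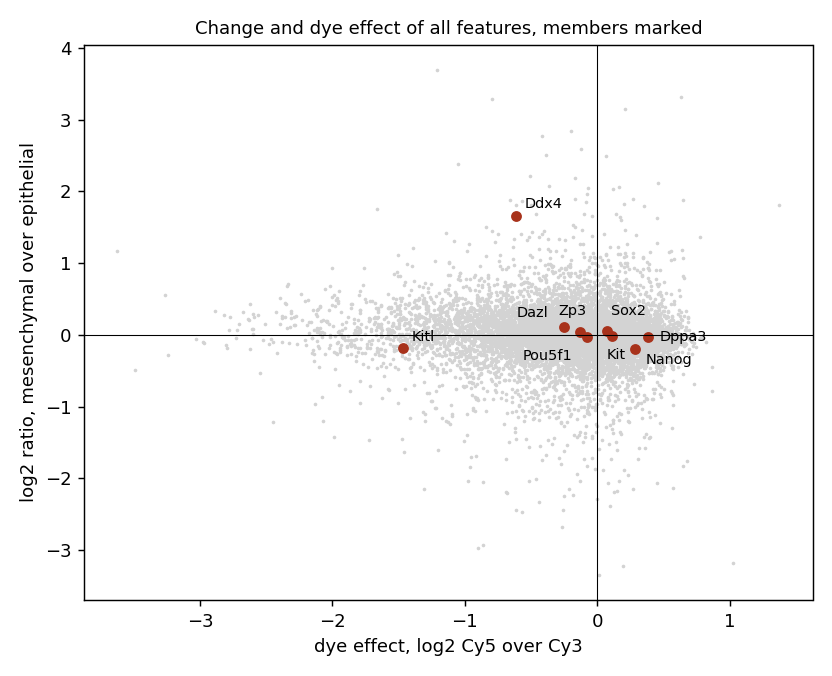
Mean log2 ratio of mesenchymal over epithelial RNA (vertical) against the dye effect, log2 of Cy5 over Cy3 (horizontal), for all features in grey and the 9 genes in red. Ddx4 stands at 1.66 with a dye effect of -0.61, Kitl at a dye effect of -1.47, and the other 7 lie near 0 on the vertical axis.

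Genes of the same processes were counted from 13 lists, with Ddx4 left out. The other 8 genes measured above are in these lists and are counted again there. They make up 3 of the 7 measured genes of germ cell specification, 3 of 23 for pluripotency and 2 of 24 for KIT signalling. The oocyte and granulosa lists hold 1 each. The lists held 160 measured genes, of which 30 (18.8%) were called by limma, against 11.9% of all features. Of these calls, 7 were higher and 23 lower in mesenchymal cells. The ovarian surface markers gave 9 of these 30 calls. The counts of each list below stand beside the same 11.9%.

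Of 7 measured genes that specify or mark primordial germ cells, 1, Ifitm3, passed the test, against 11.9% of all features. In a list this short, 1 call lies near that share. The count was 1 higher, 0 lower and 6 below significance, with a median log2 ratio of -0.001 beside -0.003 over all features. Ifitm3, a membrane protein gene used to mark nascent germ cells and also induced by interferon, rose by 0.51 ± 0.14 (limma adjusted p = 0.0119). Its probe was saturated for mesenchymal RNA on 3 arrays. The germ cell factor Tfap2c was at 0.00 ± 0.04 (adjusted p = 0.994).

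Genes of piRNAs and the germ granule, where the Ddx4 protein acts, gave 0 higher and 1 lower of 9 measured. Their median was -0.112, and of all features 11.9% were called. Tdrkh, a Tudor-domain protein of piRNA trimming, fell by 1.19 ± 0.40 (limma adjusted p = 0.00472), beside a dye effect of -1.30, and was above 0 on 2 of 6 arrays. Asz1, a scaffold of germ granules, was at 0.18 ± 0.10 (adjusted p = 0.210), and Gtsf1 was at -0.09 ± 0.01 (n = 2, adjusted p = 0.673). Piwil2 and Mov10l1 did not pass the controls on 4 arrays in either RNA.

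Of 7 meiosis genes, 0 were called by limma, against 11.9% of all features. Rec8, the meiotic cohesin subunit, was at -0.02 ± 0.14 and Syce2, of the synaptonemal complex, at -0.22 ± 0.10 (adjusted p = 0.127). Sycp1 and Sycp3, also of the synaptonemal complex, passed the controls on 0 arrays and on 1 array in mesenchymal RNA, and on 0 in epithelial RNA.

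Of 15 oocyte genes, 1 was higher and 1 lower, and 13 did not pass, beside 11.9% of all features called. Their median was -0.038. Tle6, of the subcortical complex of the oocyte, rose by 0.79 ± 0.18 (limma adjusted p = 0.0036), and H1f8, the oocyte linker histone, fell by 0.61 ± 0.06 (adjusted p = 0.0036), both with 1 sign on all 6 arrays. The 15 probes were all above the controls in both RNAs on at least 4 arrays. Their summed level was 23600 to 30000 in mesenchymal RNA and 24100 to 31000 in epithelial RNA over the 3 cultures, in units of normalised signal. These ranges overlapped.

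Among 23 pluripotency genes, 1 was higher and 2 were lower, and 20 did not pass, beside 11.9% of all features called. Their median was -0.062. Klf5 fell by 0.59 ± 0.06 (limma adjusted p = 0.00414) and Tbx3 by 0.38 ± 0.03 (adjusted p = 0.0179), while Klf2 rose by 0.52 ± 0.13 (adjusted p = 0.0104). All 3 encode transcription factors that also act outside pluripotent cells.

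Of 24 genes of KIT signalling, 1 was higher and 3 were lower, and 20 did not pass, beside 11.9% of all features called. Their median was -0.023. The kinase gene Map2k1 fell by 0.86 ± 0.19 (limma adjusted p = 0.00291), beside a dye effect of -0.92, and was above 0 on 2 of 6 arrays. Its probe was saturated for epithelial RNA on 1 array. The adaptor gene Grb10 fell by 0.83 ± 0.32 (adjusted p = 0.00951), and Sos1, an exchange factor for RAS, fell by 0.59 ± 0.10 (adjusted p = 0.00508). Pik3r1, the regulatory subunit of PI3 kinase, rose by 0.32 ± 0.03 (adjusted p = 0.0319).

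Of 10 genes of the LIN28 and let-7 pathway, 2 were higher, 1 was lower and 7 did not pass, with a median of -0.059. The chromatin protein genes Hmga2 and Hmga1 rose by 1.90 ± 0.37 (limma adjusted p = 0.000765) and 0.69 ± 0.44 (adjusted p = 0.0421). The Hmga2 probe was saturated for mesenchymal RNA on 2 arrays, so its value is not exact. Mycn, a MYC family transcription factor, fell by 2.33 ± 0.27 (adjusted p = 0.000215).

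Of the 27 other DEAD-box helicases measured, 0 were higher and 1 was lower, and 26 did not pass. Their log2 ratios ran from -0.59 to 0.37 with a median of 0.02. Ddx4, at 1.66, was selected for its high ratio, so no comparison with them is drawn. Ddx10, of ribosome assembly, fell by 0.59 ± 0.08 (limma adjusted p = 0.00436). Ddx39a was at 0.00 ± 0.01 (adjusted p = 0.981), on a probe saturated on 5 arrays in mesenchymal and on 3 in epithelial RNA. Ddx39b, of mRNA export, was at 0.00 ± 0.11 (adjusted p = 0.988), on a probe that was saturated on 2 arrays in mesenchymal and on 5 in epithelial RNA.

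**Figure D5:**
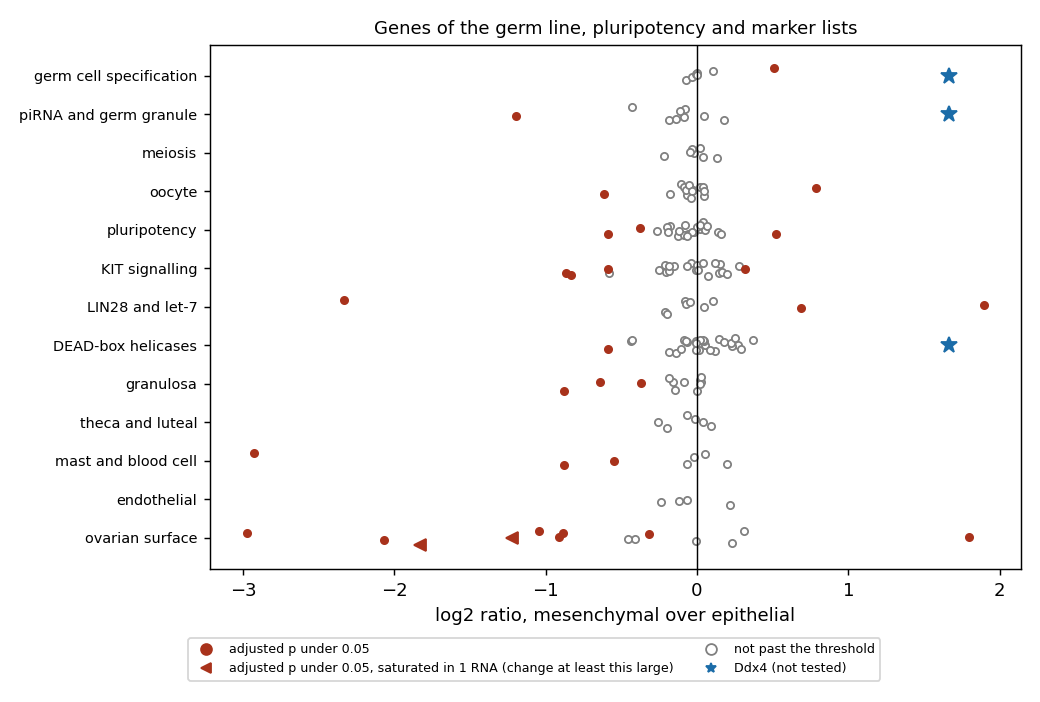
Mean log2 ratio of mesenchymal over epithelial RNA of the measured genes of 13 lists, with filled symbols for limma adjusted p under 0.05, open circles for genes past no threshold, triangles where the probe was saturated in 1 RNA on all 6 arrays, and stars for Ddx4, which was not tested. Ddx4, selected for its high ratio, lies at 1.66, and Hmga2 at 1.90 and Ly6a at 1.80 lie above it.

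Markers of other ovarian cells were counted because dissociated ovaries can hold them. Of 12 granulosa cell markers, 0 were higher and 3 lower, and 9 did not pass. The inhibin subunit gene Inhba fell by 0.88 ± 0.25 (limma adjusted p = 0.00428), beside a dye effect of -1.63, and was above 0 on 3 of 6 arrays. Inhbb fell by 0.64 ± 0.23 (adjusted p = 0.0109), and Fst, an activin binder, fell by 0.37 ± 0.05 (adjusted p = 0.0197). Their summed level was 24100 to 34700 in mesenchymal RNA and 26600 to 39500 in epithelial RNA. The aromatase gene Cyp19a1 did not pass the controls on 4 arrays in either RNA. Of 6 theca and luteal markers and 4 endothelial markers, 0 were called in each. The steroid transporter gene Star was at 0.04 ± 0.05 (adjusted p = 0.823) and the prolactin receptor gene Prlr at -0.07 ± 0.10 (adjusted p = 0.703). The VEGF receptor gene Kdr was at 0.22 ± 0.03 (adjusted p = 0.10) and Cdh5, a cadherin of vessels, at -0.24 ± 0.11 (adjusted p = 0.112). Of 7 mast and blood cell markers, 0 were higher and 3 lower, and 4 did not pass. Those 4 were Ptprc at 0.05, Gata1 at 0.20, Cpa3 at -0.07 and Csf1r at -0.02. Ms4a2, of the IgE receptor, fell by 2.93 ± 0.25 (n = 2, limma adjusted p = 0.000331), the progenitor antigen gene Cd34 fell by 0.88 ± 0.03 (adjusted p = 0.000915) and the transcription factor gene Gata2 fell by 0.55 ± 0.21 (adjusted p = 0.0171). The summed level of the 6 measured in all cultures was 32200 to 32500 in mesenchymal RNA and 42000 to 47300 in epithelial RNA. It leaves out Ms4a2 and holds Cd34 and Gata2.

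Of 14 markers of the ovarian surface itself, all above the controls in both RNAs, 1 was higher and 8 were lower, and 5 did not pass, with a median of -0.671. The mesothelial gene Gpm6a fell by 2.98 ± 0.22 (limma adjusted p = 9.57e-05) and Msln fell by 2.07 ± 0.27 (adjusted p = 0.000304), whereas the surface antigen gene Ly6a rose by 1.80 ± 0.42 (adjusted p = 0.00126). The keratin gene Krt7 was also lower, on a probe saturated for epithelial RNA on all 6 arrays. The summed level of these markers was 196000 to 240000 in mesenchymal RNA and 381000 to 451000 in epithelial RNA. It is not exact, since the sum holds saturated probes. Krt7 and Aldh1a1 were saturated for epithelial RNA on all 6 arrays, and Krt8 on 3 arrays in each RNA. These markers moved in the same samples as Ddx4, and the part of any other cell type in its ratio was not tested.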

How the data were processed

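RNA of 3 cultures was measured on 6 two-colour arrays. Per the file headers, the deposited intensities are mean spot signals and median local backgrounds as scanned by Agilent's Feature Extraction software, and its deposited log10 ratios of Cy5 over Cy3 followed lowess dye normalisation. The value table deposited by the authors is in log10 ratios, correlated with the arrays' ratios at 1 in each culture, and had medians of 0.00555, -0.0101 and -0.00233, so scale and centring were settled and direction rests on the dyes. The submitters' processing notes name limma. Dye orientation was read from the names of the deposited arrays, since each label names both dyes, and every direction rests on it.

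From the intensities, normexp (offset 50) and loess within the array, with control spots at weight 0, gave log2 ratios in limma 3.58.1 under R 4.3.3, turned to mesenchymal over epithelial. The 2 arrays of a culture were averaged, as 1 replicate. A probe was kept if flagged well above background for the same RNA on at least 4 arrays, a weak filter, since 18.5% to 81.5% of negative controls carry that flag. The brightest probe of a gene was used, and at least 2 cultures were needed, which left 2104 features on 2 cultures. Each ratio was tested against 0 with limma (lmFit, eBayes), Benjamini-Hochberg adjusted over all 17579 features. The averaging of arrays and this fit were run on simulated log2 ratios with no missing spots. The steps before them were not tested in this way. Levels are mean signal minus local background. Summed levels come from separate channels after Aquantile scaling, dyes averaged. Names came from gene IDs matched to RefSeq (GRCm38.p6; 9946 probes), current symbols (95), synonyms (1335) or the file (1256), and 7739 probes stayed unnamed.

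The genes and lists were chosen with earlier results of these data known. Every probe of the 10 genes is reported. From each list up to 4 called genes with the largest change were named, or the 2 brightest where fewer than 2 were called, besides the 5 features most like Ddx4 over cultures and the measured genes within 5 places of it. Genes named as failing the controls, and the mast and blood cell markers that did not pass, were named after their values were seen. The number of arrays limits the precision of every value.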

Additional observations from a re-analysis of the deposited data

How the results depend on the processing

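On probe 1, Ddx4 kept its direction in all 18 alternatives to the reported processing. Its log2 ratio was 1.57 to 1.74 wherever both dye orders were used. These alternatives reuse the arrays on which Ddx4 was selected, so they are no independent support. Probe 2 was at 0.74 in culture 2, or 1.03 over cultures with flagged spots kept. Each dye order alone carries the dye effect by construction. With epithelial RNA in Cy3 only, Ddx4 was at 1.05, and 7076 of 17679 features tested and 82 listed genes were called. Of the 8 other members tested, 1, Dppa3, was called at 0.39 (limma adjusted p = 0.0121). Nanog then had 0.084, Dazl -0.15, Kit 0.13 and Zp3 -0.084, each with the other sign. With epithelial RNA in Cy5 only, Ddx4 was at 2.28, and 5879 of 17647 features tested and 64 listed genes were called. Of the 8 other members tested, 1, Nanog, was called at -0.49 (limma adjusted p = 0.0149), while Sox2 had -0.02, Pou5f1 0.053 and Kitl 1.28. The split of higher and lower calls was 3219 and 3857 in the first and 3437 and 2442 in the second. The fit with no replicate block, which gives up the pairing of the RNAs within a culture, called 244 features (112 higher, 132 lower), 8 listed genes and 0 members.

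Without 1 culture, fewer genes could be tested. Members tested besides Ddx4 numbered 5 without replicate 1, 5 without replicate 2 and 8 without replicate 3. Of 15854 to 16772 features tested, 826 to 5115 were called, with 19 to 57 of the listed genes and 0 to 1 members. With Ddx4 counted, the dye effect was larger than the ratio for 4, 5 and 7 members without replicates 1, 2 and 3. In all cultures it was 8 of 9. The highest counts of calls came without replicate 1, where Kitl was at 0.54, called, in place of -0.79 without replicate 2. Over the cultures left out in turn, Pou5f1 ran from -0.07 to 0.043 and Zp3 from -0.022 to 0.11. Kit, at -0.0086 as reported, was at 0.0035 with median centring, 0.0041 with flagged spots kept and 0.0051 in the fit over 6 arrays with a dye term. An alternative chosen after seeing the data left out the array with many flagged spots, and gave 0.0067 for Kit and 0.15 for Kitl. Above 99% of the controls, 3 of 10 probes passed in both RNAs on all arrays, instead of 6. Of all 20371 probes, 11659 passed at that mark, instead of 17585. Outside the single dye orders and the fit without replicate 1, the lowest adjusted p of any member other than Ddx4 was 0.086. The cause of these differences was not tested beyond what each construction gives.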
